A study of Macaca fascicularis and Macaca mulatta and Papio anubis with 20 samples.

Results

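Capture spots rich in heavy neurofilament RNA but without a parvalbumin transcript were compared with spots rich in parvalbumin RNA in dorsal root ganglia of the crab-eating macaque, *Macaca fascicularis*. The assay was Visium: a tissue section lies on an array of barcoded capture spots, and unique molecular identifiers (UMIs) keep copies of 1 transcript from being counted again. A spot covers a patch of tissue with parts of one or more cells, often of different types. A gene's level is given as CP10K, its UMIs per 10000 UMIs. A spot entered when it lay under tissue and held at least 1000 UMIs. The first class, called NEFH-high PVALB-free here, took spots whose NEFH level reached the 90th percentile of their section and that held 0 PVALB UMIs. The second, called PVALB-high, took spots with PVALB above 0 and at or above the section's 95th percentile. Of 11090 spots that could enter, 255 were NEFH-high PVALB-free, 564 were PVALB-high and 10271 were in neither class.

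The ganglia were bought fresh frozen and cut at 10 µm, with sections of a ganglion 100 µm apart. The labels name a female and a male title code in each of 2 batches, with 4 sections under each code. Sections of a title code were treated as 1 specimen, which the labels do not state, and section 3 of the male specimen of batch 2 was not used here, which left 15 sections. No treatment, strain, age or spinal level is given for these specimens. Sections labelled as other primates were not compared here.

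Sensory neurons of the ganglion differ in axon calibre and in what they detect. NEFH encodes the heavy neurofilament subunit, which is abundant in large neurons with thick myelinated axons. PVALB encodes parvalbumin, a calcium buffer known from proprioceptors, the neurons that report muscle stretch and tension. Thick-fibred neurons also include touch receptors, and small neurons with thin or unmyelinated axons include most nociceptors. A spot can hold a large neuron beside small ones and glia, so a class of spots is not a cell type.

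Because the classes were cut from NEFH and PVALB, the levels of these genes describe the choice and are given without a test. NEFH in NEFH-high PVALB-free spots was 137 and 114 CP10K in the batch 1 female and male specimens, and 128 and 70.7 in the batch 2 ones. In PVALB-high spots it was 126 and 121 in batch 1 and 87.4 and 51.4 in batch 2, against a mean of 48.6 ± 18.6 (SD, n = 4 specimens) in spots of neither class. Of the 564 PVALB-high spots 220, or 39.0%, reached the NEFH cut-off themselves. That share ran from 20.0% to 63.9% over the sections. PVALB in PVALB-high spots was 21.7 and 24.1 CP10K in batch 1 and 24.2 and 18.0 in batch 2, with a mean of 2.77 ± 1.04 in spots of neither class. The plot of both genes by class shows these levels.

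**Figure D1:**
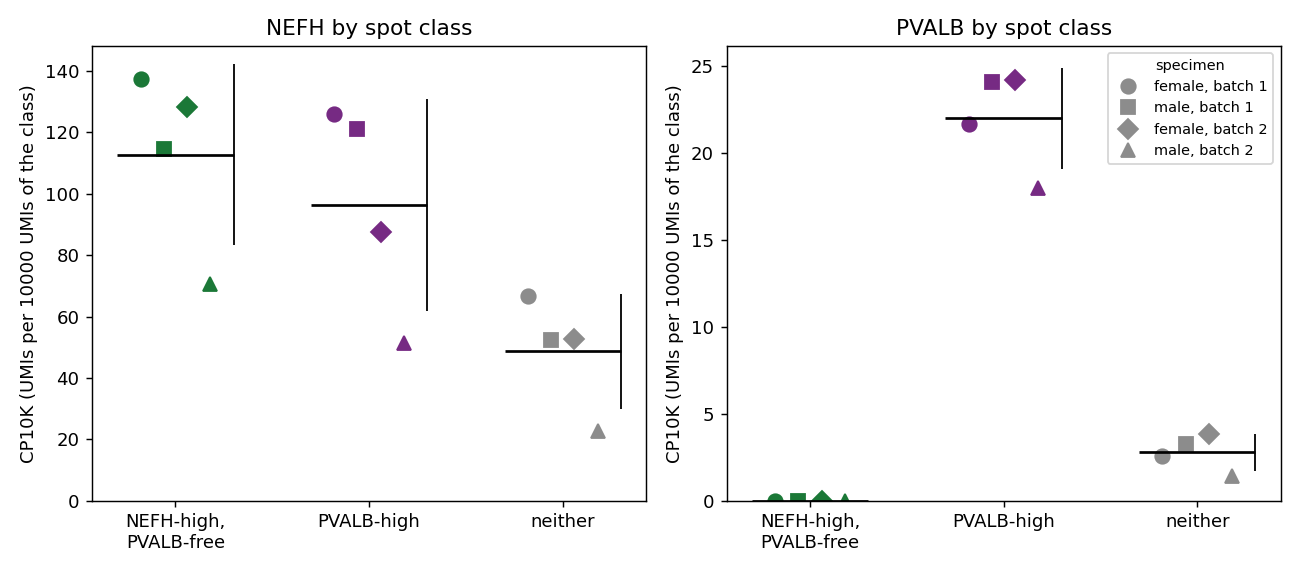
NEFH (left) and PVALB (right) in CP10K on the vertical axes for NEFH-high PVALB-free spots, PVALB-high spots and spots of neither class. Each symbol is the summed level of 1 specimen, the horizontal line is the mean and the vertical line is 1 SD over 4 specimens. The classes were defined by these genes. NEFH lies at 113 ± 29.5 and 96.5 ± 34.6 in the classes and at 48.6 ± 18.6 outside them.

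The cut-offs lay inside continuous ranges. The lowest NEFH level inside the NEFH-high PVALB-free class was 102 CP10K in the median section, and the highest level just outside it among PVALB-free spots was 99.9. For PVALB the corresponding values were 15.7 inside and 15.6 outside. Both classes were found in every section, with 4 to 38 NEFH-high PVALB-free spots (median 14) and 14 to 62 PVALB-high spots (median 36), and 4 sections held fewer than 10 of the former. Of the 1117 NEFH-high spots, 22.8% held no PVALB UMI, 220 were PVALB-high and the other 642 held a lower level of PVALB.

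Depth moved with the classes. The median spot held 2937 UMIs and 1620 genes in NEFH-high PVALB-free spots and 5295.5 UMIs and 2279 genes in PVALB-high spots, and the former were shallower in 13 of the 15 sections. A median NEFH-high PVALB-free spot would have been expected to hold 1.34 PVALB UMIs at its section's overall level (0.351 to 5.57 over sections), so 0 UMIs does not show that the RNA was absent. PVALB-high spots held a median of 12 PVALB UMIs, and 5 of them held 1. When the classes were chosen on a random 50% of each spot's UMIs and PVALB was counted in the remaining ones, it lay at 2.36 and 1.58 CP10K in the PVALB-free class in batch 1 and at 2.02 and 3.01 in batch 2. In the PVALB-high class those held-out levels were 18.8, 22.1, 19.6 and 13.8 in the same order of specimens. The classes did not overlap. These levels still describe the choice, since the same spots' other UMIs made it. Held-out NEFH lay at 108 ± 35.1 CP10K in the PVALB-free and 95.4 ± 34.3 in the PVALB-high class (SD, n = 4 specimens).

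The up to 6 touching spots of each class spot were counted as its neighbours. Among the neighbours of PVALB-high spots that could enter a class, 12.9% were PVALB-high, against 5.09% of all spots that could enter. In the 4 specimens this share was 10.8%, 11.9%, 14.8% and 16.0%. Of the neighbours of NEFH-high PVALB-free spots 6.96% belonged to their own class, against 2.30% of all such spots, and the specimens ranged from 3.74% to 11.7%. No test was run on these shares, which were above the class's own share of spots in every specimen for both classes. Sections differed. In section 4 of the batch 1 female specimen 0 of 17 NEFH-high PVALB-free spots touched another of their class. The count was 0 of 23 in section 2 of the batch 2 female specimen and 17 of 38 in section 1 of the batch 2 male one. Of the 255 NEFH-high PVALB-free spots 49 touched a PVALB-high one. PVALB in the unclassed spots around PVALB-high spots was 4.09 CP10K and around NEFH-high PVALB-free spots 2.79. The authors' deposited tables of Moran's I, a score of likeness between neighbouring spots, gave NEFH values from 0.111 to 0.472 (median 0.288) and PVALB values from 0.0305 to 0.238 (median 0.101) over the 15 sections. The deposited adjusted p for PVALB was above 0.05 in 1 of them (0.0834).

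For the other genes, the UMIs of each class were summed per specimen and the classes were compared within specimens. The sums came to 1234537 UMIs for NEFH-high PVALB-free and 3994864 for PVALB-high spots. Of 5381 genes tested, 490 passed an adjusted p of 0.05 (9.11%): 252 were higher in PVALB-high spots (4.68%) and 238 were higher in NEFH-high PVALB-free spots (4.42%). The direction was the same in all 4 specimens for 451 of them (8.38% of those tested), and the median log2 difference over all tested genes was -0.01. These counts hold PVALB, whose place was fixed by the rule, so 251 genes that the rule did not use were higher in PVALB-high spots. Differences are given as log2 of PVALB-high over NEFH-high PVALB-free, so a negative value is a higher level in the PVALB-free class, and each adjusted p below comes from edgeR's quasi-likelihood test, adjusted by Benjamini-Hochberg over all 5381 genes. Fewer cells of a type and less RNA per cell cannot be told apart in such sums.

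**Figure D2:**
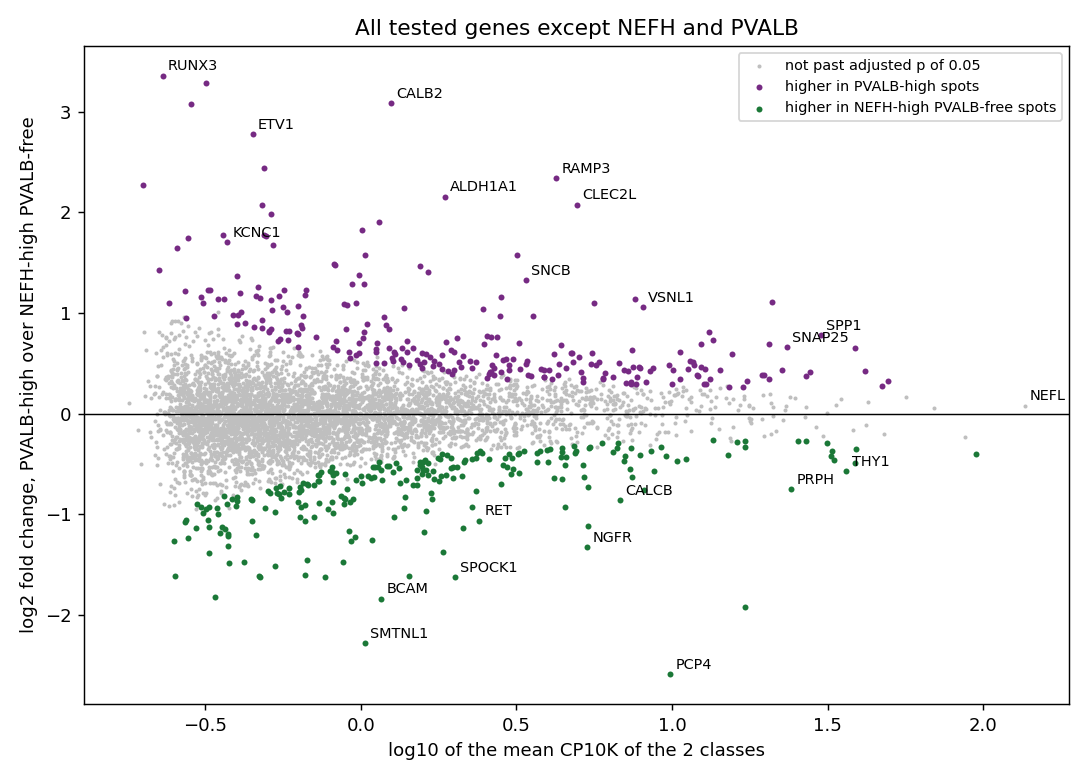
Each point is 1 of the tested genes other than NEFH and PVALB. The horizontal axis is the log10 of the mean CP10K over both classes and the vertical axis the log2 fold change of PVALB-high over NEFH-high PVALB-free spots. Coloured points passed an adjusted p of 0.05, and the named points run from RUNX3 at 3.36 to PCP4 at -2.59, with NEFL near 0 at 0.08.

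The 490 genes depended on some settings. PVALB-high spots matched to the PVALB-free ones in UMIs within sections (250 of each) gave 341 genes. Of the 490, 452 could be tested there and all 452 kept their direction. Keeping only the 163 PVALB-free spots deep enough that 3 PVALB UMIs would have fallen below the PVALB-high cut-off gave 489 genes. Thinning every spot to 1000 UMIs before choosing the classes gave 79 genes, and of 414 of the 490 tested there, 60 turned direction. Batch 1 alone gave 708 genes and batch 2 alone 33, with 2 of 460 turned. Without the male specimen of batch 1, 164 passed.

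RUNX3, ETV1, CALB2 and SPP1, known from proprioceptors, were higher in PVALB-high spots. They were the 4 of 9 measured members of the proprioceptor list, PVALB aside, that reached the filter on low counts, and RUNX3, ETV1 and CALB2 reached it with few UMIs in PVALB-free spots, so the 4 do not stand for the list. Without that filter 5 of the 9 were higher in PVALB-high spots and 0 lower, with a median of 1.31. Of all 14273 genes tested without it, 417 were higher in PVALB-high spots. DESeq2 called 3 of the 4 and gave RUNX3 no adjusted p. CALB2, a calcium buffer related to parvalbumin, lay at 2.05 and 2.25 CP10K in PVALB-high spots of the female and male specimens of batch 1 and at 3.14 and 1.41 in batch 2. In NEFH-high PVALB-free spots it lay at 0.156 and 0.299 in batch 1 and at 0.230 and 0.435 in batch 2. The classes did not overlap, and the log2 difference was 3.09 ± 0.22 (SE; adjusted p = 2.81e-10).

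RUNX3 and ETV1 are transcription factors needed for the development of proprioceptors. RUNX3 lay at 0.532, 0.412, 0.420 and 0.283 CP10K in the PVALB-high spots of the 4 specimens, and 5 UMIs were counted in all NEFH-high PVALB-free spots against 175. Its log2 difference was 3.36 ± 0.45 (adjusted p = 8.96e-06). ETV1 rested on 16 and 359 UMIs and differed by 2.78 ± 0.34 (adjusted p = 2.57e-06). Both genes had few UMIs in the PVALB-free class, where 11 sections held no RUNX3 UMI and 8 no ETV1 UMI. NTRK3, the neurotrophin-3 receptor of proprioceptors, had 4 and 10 UMIs in the classes, too few to be tested.

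SPP1, a secreted glycoprotein abundant in large sensory neurons, was high in both classes. It lay at 48.0, 56.3, 25.8 and 18.1 CP10K in PVALB-high spots and at 40.1, 29.6, 11.6 and 10.7 in NEFH-high PVALB-free spots of the same specimens. The specimens of batch 1 were higher than those of batch 2 in both classes, so the classes overlapped across specimens, but PVALB-high spots were higher within each. The difference was 0.78 ± 0.10 (adjusted p = 4.93e-06).

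RAMP3, CLEC2L and ALDH1A1 were among the 10 named for the size of their difference toward PVALB-high spots. RAMP3, an accessory protein of receptors for calcitonin-family peptides, lay at 7.003, 8.48, 7.71 and 4.93 CP10K in PVALB-high spots and between 1.30 and 1.52 in NEFH-high PVALB-free spots, where the 4 specimens were nearly level. Its difference was 2.34 ± 0.13 (adjusted p = 1.22e-12), and it was higher in PVALB-high spots in all 15 sections. The RAMP3 level of spots in neither class, 2.40 ± 0.751, was above that of the PVALB-free class.

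CLEC2L, a membrane protein of the C-type lectin family, averaged 7.95 ± 1.97 CP10K in PVALB-high and 1.96 ± 0.228 in PVALB-free spots (SD, n = 4), a difference of 2.08 ± 0.13 (adjusted p = 1.38e-11). ALDH1A1, which makes retinoic acid, lay at 3.07 ± 0.982 and 0.646 ± 0.182 and differed by 2.16 ± 0.16 (adjusted p = 4.31e-10). Among spots, 53.0% of the PVALB-high ones held a CALB2 UMI and 54.1% an ALDH1A1 UMI, against 11.4% and 23.5% of the shallower PVALB-free ones and 12.7% and 29.2% of spots in neither class. DNAAF3, an assembly factor of ciliary dynein, SYT13, a synaptotagmin, RELT, a member of the tumour necrosis factor receptor family, and RGS9, a regulator of G-protein signalling, differed by 3.29, 3.08, 2.44 and 2.28, but these 4 genes held between 8 and 20 UMIs in all PVALB-free spots. SYT13 lost the call with DESeq2 (adjusted p = 0.0517).

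Genes of fast firing moved both ways. Of 12 tested members of a list of channels and pumps of fast-conducting fibres, 3 were higher in PVALB-high spots, KCNC1 and KCNK1 among them, and 3 in NEFH-high PVALB-free spots, KCNS3 and KCNAB2 among them, with a median of -0.12. KCNC1, a potassium channel that shortens action potentials, lay at 0.558, 0.817, 0.527 and 0.408 CP10K in PVALB-high and at 0.249, 0.256, 0.115 and 0.0544 in PVALB-free spots of the 4 specimens. The classes did not overlap, and the difference was 1.70 ± 0.27 (adjusted p = 0.000105). KCNC1 rested on 24 UMIs in PVALB-free and 254 in PVALB-high spots, and reached the filter on low counts through the latter. In PVALB-free spots 4 sections held no KCNC1 UMI. KCNK1, a leak potassium channel, differed by 1.29 ± 0.18 (adjusted p = 1.28e-05). KCNS3, a modifier of potassium channels, and KCNAB2, an auxiliary subunit of them, differed by -0.57 ± 0.13 and -0.29 ± 0.09. Without the male specimen of batch 1 both lost the call (adjusted p = 0.0964 and 0.274), and KCNAB2 also lost it without the female specimen of batch 1 (0.187), the male one of batch 2 (0.0698) or any 1 of 6 sections (0.0522 to 0.138). DESeq2 called neither (0.106 and 0.297).

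Calcium-binding and transmitter release genes that passed were higher in PVALB-high spots. Of 8 tested calcium-binding genes 3 passed, CALB2 and the neuronal calcium sensors VSNL1 and HPCAL1. Of 14 tested genes of transmitter release 4 passed: SNCB, CHGB, SV2A and CHGA. The list medians were 0.13 and 0.12, and 4.68% of all tested genes were higher in PVALB-high spots. With UMIs summed per section, 3 of 7 calcium-binding genes were higher in PVALB-high and 1 in PVALB-free spots, against 174 and 208 of all 2061. With PVALB-high spots also NEFH-high, 4 of 13 transmitter release genes were higher in PVALB-high and 1 in PVALB-free spots, against 307 and 301 of all 4992. VSNL1 lay at 11.7, 12.5, 12.6 and 6.56 CP10K in PVALB-high spots and at 6.82, 5.17, 5.70 and 3.48 in PVALB-free spots, with the male specimen of batch 2 lowest in both. Its difference was 1.06 ± 0.10 (adjusted p = 2.88e-08). SNCB, beta-synuclein of presynaptic endings, averaged 4.78 ± 0.884 and 1.99 ± 0.562 (1.33 ± 0.12, adjusted p = 2.96e-08). CHGB, a granin of secretory granules, differed by 0.97 ± 0.13, SV2A, a vesicle membrane protein, by 1.23 ± 0.29, and CHGA, another granin, by 0.57 ± 0.13. SV2A rested on 25 UMIs in PVALB-free and 196 in PVALB-high spots. HPCAL1 and CHGA lost the call without the male specimen of batch 1 (adjusted p = 0.0518 and 0.141), HPCAL1, CHGA and SV2A lost it with DESeq2 (0.1298, 0.0751 and 0.183), and CHGA turned to -0.0413 in thinned spots.

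Oxidative phosphorylation genes, which encode the respiratory chain and ATP synthase of mitochondria, included 12 that were higher in PVALB-high spots and 0 that were lower. All 22 tested members of the list had positive differences, with a median of 0.33, and the nuclear-encoded subunits COX7B, COX6B1, NDUFB5 and NDUFB9 differed most among those that passed. COX7B, a subunit of cytochrome oxidase, lay at 10.4, 11.4, 12.2 and 11.5 CP10K in PVALB-high and at 6.75, 9.35, 9.80 and 6.97 in PVALB-free spots. Its difference was 0.48 ± 0.09 (adjusted p = 0.00117). COX6B1, of the same complex, and NDUFB5 and NDUFB9, of complex I, differed by 0.48 ± 0.09, 0.54 ± 0.11 and 0.49 ± 0.11. Without the male specimen of batch 1, 4 of the 22 passed, against 164 of all 4835 genes tested. COX6B1 and NDUFB9 did not pass there (adjusted p = 0.0515 and 0.0797). NDUFB9 also lost the call among spots matched in UMIs (0.35, adjusted p = 0.0553). In those spots 10 of the list's 22 passed, against 341 of all 4407 genes tested. By edgeR's test 0 of the list passed in batch 2 alone and in thinned spots, with 8 and 3 at an unadjusted p under 0.05.

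**Figure D3:**
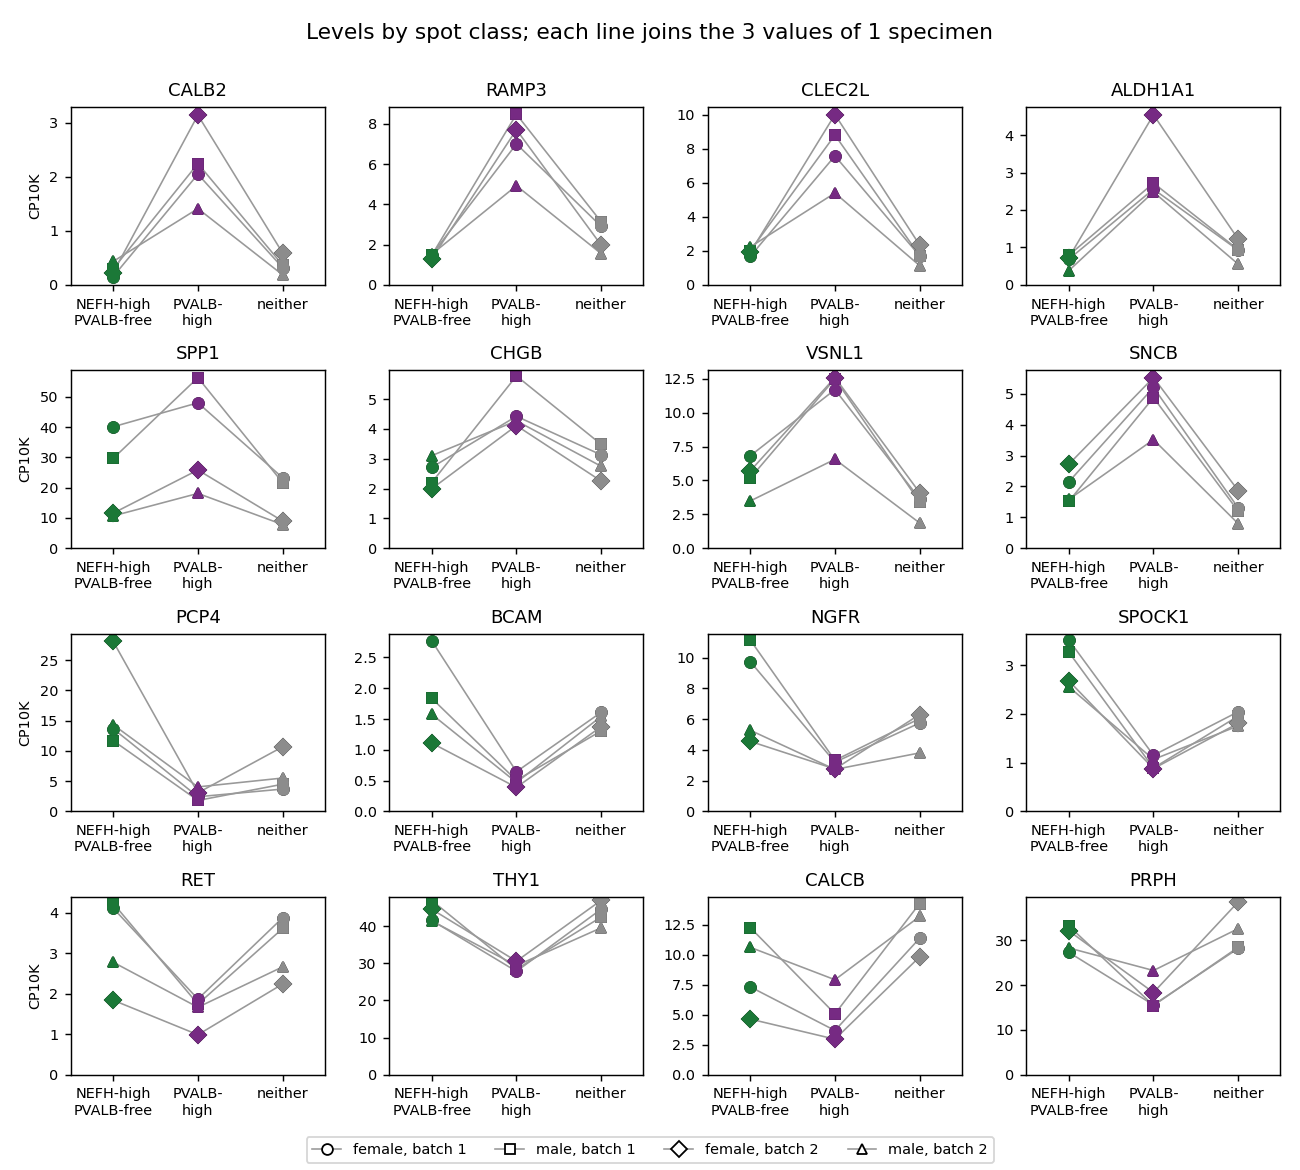
Levels of 16 genes in CP10K (vertical axes, from 0) in NEFH-high PVALB-free spots, PVALB-high spots and spots of neither class. Each symbol is a specimen and each line joins its 3 values. The upper 8 genes were higher in PVALB-high spots within every specimen, such as CALB2 at 1.41 to 3.14 against 0.156 to 0.435, and the lower 8 were lower there, such as PCP4 at 1.81 to 4.05 against 11.7 to 28.1.

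PCP4 had the largest difference among the named genes higher in NEFH-high PVALB-free spots. It encodes a small protein that speeds calcium exchange by calmodulin. Its level was 13.7 and 11.7 CP10K in the batch 1 female and male specimens and 28.1 and 14.3 in the batch 2 ones, against 2.42, 1.81, 3.07 and 4.05 in PVALB-high spots. The female specimen of batch 2 stood highest, and no specimen overlapped between the classes. The difference was -2.59 ± 0.14 (adjusted p = 6.23e-13). The gene was uneven among PVALB-free spots: 69.8% held a PCP4 UMI, with a median of 5.80 CP10K and a 90th percentile of 35.2, and the tenth of spots with the most PCP4 UMIs held 55.8% of them.

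SMTNL1, a smoothelin-like protein, averaged 1.70 ± 0.780 CP10K in PVALB-free and 0.361 ± 0.118 in PVALB-high spots (-2.28 ± 0.17, adjusted p = 4.28e-10). BCAM, a laminin receptor, differed by -1.84 ± 0.16. SPOCK1, a proteoglycan of the extracellular matrix, lay at 3.52, 3.27, 2.68 and 2.56 in PVALB-free and at 1.15, 0.890, 0.879 and 1.07 in PVALB-high spots. It differed by -1.63 ± 0.13 (adjusted p = 1.62e-09), and spots of neither class lay between at 1.89 ± 0.133. NSG2, a protein of neuronal endosomes, GALNT18, a glycosyltransferase, ELMO1, an adaptor upstream of Rac, MAOA, a monoamine oxidase, and ISOC1 differed by -1.62, -1.62, -1.62, -1.60 and -1.52. These 5 genes did not overlap between the classes across specimens. They were picked for large differences that went the same way in 4 specimens, so this is in part built in. The share of all tested genes without overlap is not reported here.

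Touch receptor genes had few UMIs. Of 13 listed genes 4 could be tested, and NTNG1 and RET passed, both higher in NEFH-high PVALB-free spots. NTNG1 reached the filter on low counts through the PVALB-free class, with 78 UMIs there and 92 in PVALB-high spots. The 4 therefore do not stand for the list. Without that filter 4 of 11 were higher in PVALB-free spots and 0 lower, with a median of -0.64. Of all 14273 genes tested without it, 206 were higher in PVALB-free spots. RET, the signalling receptor for the glial cell line-derived factors, lay at 4.11, 4.23, 1.84 and 2.78 CP10K in PVALB-free and at 1.87, 1.74, 0.986 and 1.66 in PVALB-high spots. Its difference was -1.06 ± 0.12 (adjusted p = 7.97e-07), and RET in spots of neither class, 3.09 ± 0.772, was close to the PVALB-free level of 3.24 ± 1.14. NTNG1, a netrin-related adhesion protein, lay at 0.633 ± 0.181 and 0.213 ± 0.0908, with 0.232 ± 0.0708 in spots of neither class. Its difference was -1.47 ± 0.24 (adjusted p = 0.000117). PIEZO2, the mechanically gated channel of touch and proprioception, and GFRA2, the neurturin co-receptor, differed by -0.71 ± 0.24 and -0.58 ± 0.19 and did not pass (adjusted p = 0.0584 and 0.0591). PIEZO2 passed, at -0.88 (adjusted p = 0.0161), when only the deeper PVALB-free spots were kept. The number passing also changed in other settings. At 500 UMIs per spot 3 of 4 tested list members were higher in PVALB-free spots, against 263 of all 6246 genes. With stricter cut-offs 3 of 3 were, against 144 of all 4204. NTRK2, the receptor for brain-derived neurotrophic factor, had 5 and 10 UMIs and was not tested.

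The summed nociceptor genes lay at 24.3 ± 9.63 CP10K in NEFH-high PVALB-free and 19.5 ± 9.68 in PVALB-high spots, against 43.4 ± 8.53 in spots of neither class. Of 10 tested, 3 passed, all higher in NEFH-high PVALB-free spots, with a list median of -0.20. CALCB, a calcitonin gene-related peptide, lay at 7.31, 12.3, 4.63 and 10.6 CP10K in PVALB-free and at 3.68, 5.07, 2.96 and 7.91 in PVALB-high spots. The ranges overlapped, PVALB-high spots were lower within each specimen, and both means were below the 12.2 ± 1.96 of spots in neither class (-0.86 ± 0.11, adjusted p = 5.73e-06). In thinned spots CALCB turned to 0.0311 and 2 of 8 tested list members were higher in PVALB-high spots and 0 lower, with a median of 0.24. Of all 3710 genes tested in thinned spots, 43 were higher in PVALB-high spots. SCN9A, a sodium channel higher in 3 of 4 specimens and named after its values were seen, differed by -1.61 ± 0.41 (adjusted p = 0.0111).

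Other peptide and channel genes of small neurons did not pass. CALCA, the other calcitonin gene-related peptide, lay at 2.67 ± 1.02 and 2.36 ± 1.32 CP10K in PVALB-free and PVALB-high spots, TAC1, the substance P precursor, at 4.00 ± 2.17 and 4.44 ± 2.22, and SCN11A, a sodium channel, at 1.45 ± 1.07 and 1.12 ± 0.469. Spots of neither class held 5.34 ± 0.623, 9.76 ± 2.92 and 3.66 ± 1.40. The differences between the classes were -0.27 ± 0.13, 0.19 ± 0.10 and -0.38 ± 0.18 (adjusted p = 0.234, 0.293 and 0.228). In thinned spots SCN11A turned to 0.73 and passed (adjusted p = 0.00517). SCN10A, a sodium channel of nociceptors, had 2 and 5 UMIs. When PVALB-high spots had to be NEFH-high too, 4 of 8 tested nociceptor genes were higher in the PVALB-free class and 0 lower, with a median of -0.77. Over all genes in that setting, 301 of 4992 tested were higher in the PVALB-free class.

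The neurofilament partners of NEFH went separate ways. NEFL, the light subunit, was 151, 135, 149 and 94.5 CP10K in PVALB-free and 157, 174, 132 and 93.7 in PVALB-high spots, and the ranges overlapped. Its difference was 0.08 ± 0.08 (adjusted p = 0.646), but in thinned spots it turned to -0.29 and passed (adjusted p = 0.000180). PRPH, peripherin of thin-axoned neurons, lay at 27.3, 33.2, 32.1 and 28.3 in PVALB-free and at 15.6, 15.4, 18.3 and 23.3 in PVALB-high spots. It differed by -0.75 ± 0.10 (adjusted p = 4.94e-06), was lower in PVALB-high spots in all 15 sections and stood at 32.0 ± 4.85 in spots of neither class. INA, alpha-internexin, differed by 0.77 ± 0.17 (adjusted p = 0.00414), with classes that overlapped, and lost the call with DESeq2 (adjusted p = 0.3895). No feature carried the symbol NEFM.

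General neuronal genes were also split, and all 9 tested members of that list passed by edgeR's test, 6 of them by DESeq2. SNAP25, of the release machinery, and SNCG, gamma-synuclein, were higher in PVALB-high spots, by 0.66 ± 0.08 and 0.42 ± 0.07 (adjusted p = 4.48e-06 and 0.000347). The other 7 were higher in PVALB-free spots. THY1, a surface glycoprotein of neurons, lay at 41.6, 46.9, 44.6 and 41.4 CP10K in PVALB-free and at 27.8, 28.4, 30.6 and 29.4 in PVALB-high spots (-0.57 ± 0.07, adjusted p = 6.61e-06), beside 43.4 ± 3.15 in spots of neither class. GAP43, of growing axon tips, TAGLN3, an actin-binding protein, and RBFOX3, a splicing factor of neuronal nuclei, differed by -0.93 ± 0.14, -0.59 ± 0.12 and -1.03 ± 0.20. RBFOX3 lost the call without the male specimen of batch 1 (adjusted p = 0.0773) and with DESeq2 (0.0501), and turned to 0.0585 in thinned spots.

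Of 17 tested genes of axonal transport 5 passed, all higher in PVALB-free spots, with a median of -0.09. Of all tested genes 4.42% were higher there, and MAP1B was also counted among the general neuronal genes. With UMIs summed per section, 5 of 14 transport genes were higher in PVALB-free and 1 in PVALB-high spots, against 208 and 174 of all 2061. KIF5B, a kinesin motor, lay at 2.96 ± 0.679 and 1.73 ± 0.366 CP10K (-0.77 ± 0.12, adjusted p = 5.12e-05) and DYNLL1, a dynein light chain, at 10.5 ± 1.69 and 6.99 ± 1.04 (-0.57 ± 0.10, adjusted p = 0.000321), both in all 15 sections. STMN1, a microtubule destabiliser, differed by -0.55 ± 0.11 but lost the call without the male specimen of batch 1 (adjusted p = 0.0983) and turned to 0.0758 in thinned spots. MAP1B, a microtubule-associated protein, differed by -0.45 ± 0.12 and lost it with DESeq2 (0.148), with the deeper PVALB-free spots alone (0.286), without the female specimen of batch 1 (0.0747), without the male one of batch 2 (0.146) or without section 4 of the batch 1 male specimen (0.1004).

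**Figure D4:**
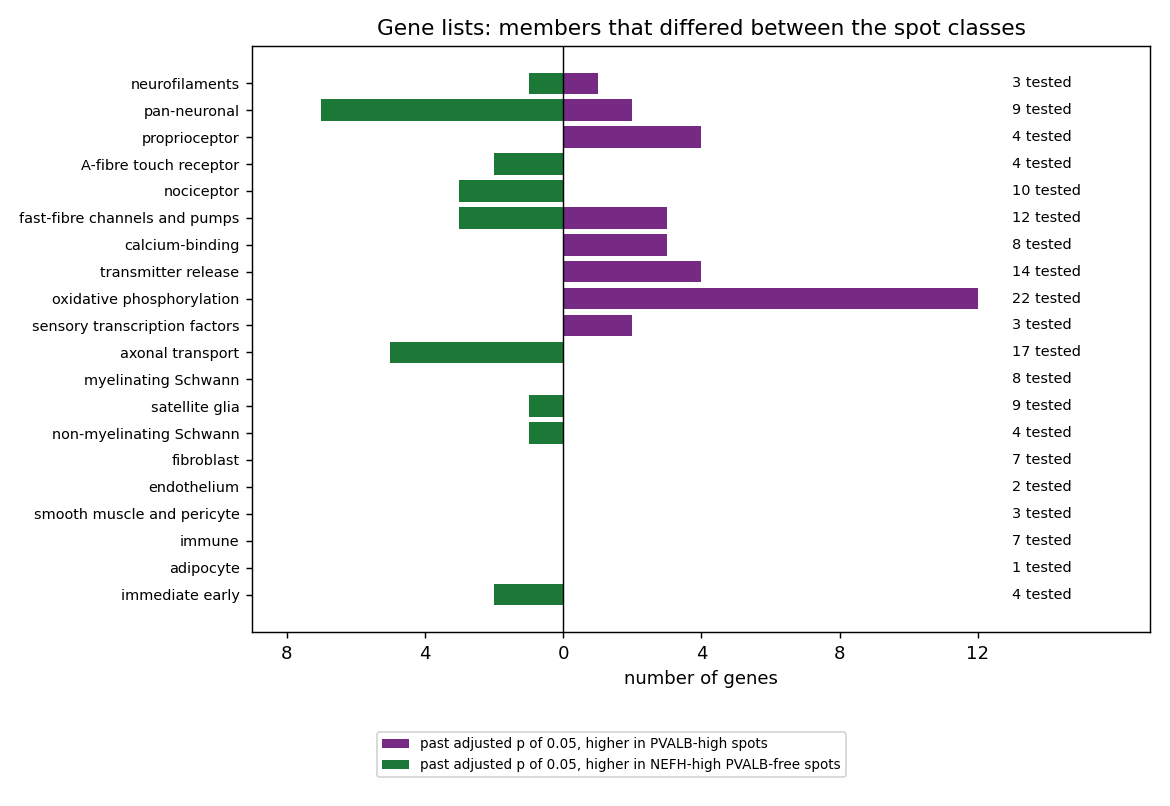
Number of genes (horizontal axis) in each list (vertical axis) that passed an adjusted p of 0.05, to the right where higher in PVALB-high and to the left where higher in NEFH-high PVALB-free spots, beside the number tested. Oxidative phosphorylation has 12 of 22 to the right and general neuronal genes 7 of 9 to the left, against 4.68% and 4.42% of all tested genes.

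How many markers of non-neuronal cells passed depended on the NEFH level of the PVALB-high spots. By edgeR's test 0 passed of 28 tested genes: 8 of myelinating Schwann cells, 7 of fibroblasts, 2 of endothelium, 3 of smooth muscle and pericytes, 7 of immune cells and 1 of adipocytes. Of these 28, 8 had an unadjusted p under 0.05, and DESeq2 called 0. The median of the myelin list was -0.19. The summed myelin genes lay between 17.2 and 36.4 CP10K in PVALB-free spots and between 13.9 and 36.2 in PVALB-high spots. The summed satellite glia genes lay between 67.1 and 77.7 and between 52.6 and 75.4, and those of adipocytes between 10.4 and 45.2 and between 8.47 and 42.5. Skeletal muscle genes summed to at most 0.342 CP10K in either class. SPARC alone of 9 tested satellite glia genes passed (-0.27 ± 0.09, adjusted p = 0.0414). SPARC turned to 0.0223 in thinned spots and lost the call without any 1 of 3 specimens, the male one of batch 1 or either of batch 2 (adjusted p = 0.111 to 0.205), without any 1 of 6 sections (0.0561 to 0.0931), with the deeper PVALB-free spots alone (0.304) and with DESeq2 (0.211). With the PVALB-high class limited to NEFH-high spots, 12 of 26 tested genes of the same 6 cell types, satellite glia aside, were higher in PVALB-free spots and 0 lower. They were 4 of 8 myelin genes, 3 of 7 of fibroblasts, 2 of 2 of smooth muscle and pericytes, 2 of 6 of immune cells and 1 of 1 of adipocytes. Over all genes in that setting, 301 of 4992 tested were higher in PVALB-free spots. In thinned spots 3 of 8 myelin genes were higher in PVALB-high spots, against 43 of all 3710 genes tested there.

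NGFR, the low-affinity neurotrophin receptor, is made by non-myelinating Schwann cells, on whose list it stood, and by sensory neurons. It lay at 9.74, 11.1, 4.56 and 5.28 CP10K in PVALB-free and at 3.20, 3.32, 2.76 and 2.73 in PVALB-high spots, and the classes did not overlap. Its difference was -1.33 ± 0.13 (adjusted p = 3.40e-08), in all 15 sections, while the other 3 tested genes of that list did not pass. Which cells held the NGFR RNA was not tested. Of 4 tested immediate early genes FOS and JUN passed, both higher in PVALB-free spots. FOS was 3.89, 1.45, 0.306 and 1.63 against 1.27, 0.963, 0.215 and 1.29, and its difference of -0.94 ± 0.18 (adjusted p = 0.000905) fell to -0.48 without the female specimen of batch 1 (adjusted p = 0.179) and to -0.52 without section 1 of that specimen (0.0508). It was -0.39 (0.221) among spots matched in UMIs, and turned to 0.28 in thinned spots. JUN, higher in 3 of 4 specimens and named after its values were seen, differed by -0.69 ± 0.18 (adjusted p = 0.0130).

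The genes that passed were also set beside spots of neither class. Of the 251 genes other than PVALB that passed as higher in PVALB-high spots, 243 were above the level of the other spots there, and 140 of them were also above it in PVALB-free spots. Of the 238 that passed as higher in PVALB-free spots, 222 were below the level of the other spots in PVALB-high spots, and 158 were above it in PVALB-free spots. These counts describe means over specimens of genes chosen by the comparison, and were not tested. The same shares over all tested genes are not reported here.

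Within the PVALB-high class the 220 NEFH-high spots were set beside the remaining ones. SPP1 was 42.6 ± 20.8 CP10K in the former and 31.4 ± 14.7 in the latter (SD, n = 4), RAMP3 averaged 7.60 and 6.45, and CLEC2L 8.82 ± 1.66 and 7.08 ± 2.27, all higher in the NEFH-high spots of every specimen. CALCB, at 3.87 ± 1.70 and 5.88 ± 2.75, TAC1, at 3.23 ± 1.89 and 5.68 ± 2.74, and PRPH, at 16.7 ± 3.31 and 19.7 ± 4.03, were lower there in every specimen. RUNX3 was 0.409 ± 0.126 and 0.409 ± 0.0854. These splits used NEFH, were chosen after the data were seen and were given no test.

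Whether the class difference itself varied was tested with interaction terms over the 4 specimens. By edgeR's quasi-likelihood test 0 of 5381 genes passed for batch, which also separates the Space Ranger versions, and 338 had an unadjusted p under 0.05. For sex 0 passed and 148 had such a p. DESeq2 was not run on these terms. Each term rested on 2 specimens against 2.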

How the data were processed

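The authors deposited UMI counts for each feature in each spot; the Space Ranger version was 2.0.0 in batch 1 and 2.1.0 in batch 2 of the *M. fascicularis* sections, per the file headers. The genome build used for these sections is not given in the sources used here; the submitters' processing notes name Mmul_10 without a role, while feature identifiers carry the *M. fascicularis* prefix of Ensembl. Of 22000 features 15068 carried a symbol, and no sequence or coordinate was used. The authors' deposited Moran's I score and its adjusted p-value per gene and section were described only.

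Members and gene lists were chosen with earlier results of these data known. Class UMIs were summed per specimen, filtered with filterByExpr, normalised by TMM and fitted in edgeR 4.0.16 with specimen and class as terms. The specimen is the pairing, since both classes came from the same sections. Named genes were, per list, up to 4 that passed in each direction and went the same way in 4 specimens, and up to 2 that did not pass; the 10 largest differences each way with at least 100 UMIs; and a set of sensory genes. Values are printed for part of the genes these rules pick; some are not reported here, though list counts include them. The labels do not say that specimens are separate animals. The p-values set the class difference against its spread over these 4 specimens only, with edgeR's spread for each gene drawn in part from all genes. Of 15958 pairs of spots at one array position in different sections, 0 had identical counts. The fit was also run on simulated class sums, drawn without choosing spots by NEFH and PVALB. That simulation cannot bear on the choice of spots, and its outcome is not reported here. Alternatives were DESeq2 1.42.0, other filters, depths, cut-offs and left-out sections and specimens; the 2 that bear on depth (UMI-matched spots and deeper PVALB-free spots) were chosen after seeing the data.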

Additional observations from a re-analysis of the deposited data

Results flagged for a closer look

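In 6 cases 1 of the 4 specimens stood apart from the other 3 by Dixon's test at 95%, which chance does in about 1 in 20 groups. The number of groups screened is not reported here, so the 6 are not shown to exceed what chance would give. In NEFH-high PVALB-free spots the female specimen of batch 2 was highest for PCP4 (28.1 CP10K) and SNCG (38.7 CP10K), and the female specimen of batch 1 was highest for NTNG1 (0.903 CP10K). In PVALB-high spots the female specimen of batch 2 was highest for ALDH1A1 (4.54 CP10K) and lowest for DYNLL1 (5.44 CP10K), and the male specimen of batch 2 was lowest for VSNL1 (6.56 CP10K). All 6 genes kept their direction and call without each specimen and section in turn, where tested.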

How the results depend on the processing

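Without the replicate block, the specimen that pairs the classes, 46 genes passed, against 490 with it. DESeq2 called 179, stricter cut-offs (NEFH at the 95th percentile, at least 2 PVALB UMIs) 282, spots thinned to 1000 UMIs 79 and batch 2 alone 33. Leaving out 1 section or specimen gave 164 to 524 genes, the lowest without the male specimen of batch 1. Of the 490 genes, none turned direction among those tested in the other settings, except 2 with classes chosen on a random 50% of UMIs, 2 in batch 2 alone and 60 in thinned spots. Thinning also remakes the classes (732 and 1046 spots), and the cause was not tested. For the batch interaction 9 genes passed without the filter, 1 with section sums, 7 at 500 UMIs, 2 at 2000 UMIs, 2 with PVALB-high spots also NEFH-high and 0 to 21 with 1 section left out, most without section 1 of the batch 2 male specimen. For the sex interaction 1 passed without the filter.

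Of 55 named genes that passed, 44 kept the call without each section and specimen where tested. Thinned spots reversed RBFOX3 (0.0585), CALCB (0.0311), CHGA (-0.0413), STMN1 (0.0758), SPARC (0.0223) and FOS (0.28) among the 55. Thinning also ended the call for 21 others of the 55 that kept their direction, while 18 kept direction and call. Among genes that had not passed, thinned spots reversed NEFL (-0.29), SCN11A (0.73) and CALCA (0.19). By edgeR's test NEFL and SCN11A passed there in the reversed direction (adjusted p = 0.000180 and 0.00517). NEFL also reversed with section sums (-0.0468), 2000 UMIs (-0.0410), stricter cut-offs (-0.182), matched UMIs (-0.0142), batch 2 alone (-0.0984) and without the male specimen of batch 1, the low end of -0.0305 to 0.179 over left-out sections and specimens. SCN11A reversed without that specimen, the high end of -0.545 to 0.126, and in batch 2 alone (0.0677), CALCA with stricter cut-offs (0.0272) and in batch 2 alone (0.11), and TAC1 with PVALB-high spots also NEFH-high (-0.31) and with a random 50% of UMIs (-0.0422). Batch 2 alone ended the call for 35 of 51 named genes tested there, the fit without the block for 33 of 55 and DESeq2 for 10.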
